A study of Mus musculus with 7 samples.

Results

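The ribosome biogenesis genes were 33 genes of the nucleolar machinery that makes ribosomal RNA and assembles it into subunits, out of 23602 genes tested. Their probes were chosen by name, as those whose gene name in the scanner files was one of the 33 symbols or an older alias. This found 59 probes, of which 37 carried the current symbol and 22 an older one (Nol5a for Nop56, Nol1 for Nop2, Rpo1-4 for Polr1a). All 33 genes were measured on all 7 arrays, and the probe used for each was well above background in both channels on all 7. No measured value entered the choice of the probes by name, but the 33 genes themselves were chosen with earlier results of these data known.

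RNA came from flow-sorted thymocytes of BALB/c mice that lacked Rag2, the recombinase subunit without which antigen receptor genes are not rearranged. A first population, Lig+, was DN4 cells of Rag2-/- mice with the KN6 transgene. The KN6 receptor is of the γδ type, and its known ligands are H2-T10 and H2-T22. The second, Lig-, was DN4 cells of mice with the same transgene and the same Rag2 deletion. As the control served DN3 cells of non-transgenic Rag2-/- mice. Thymocytes that carry neither CD4 nor CD8 pass through the DN3 stage before DN4. How the ligand state was set, how many animals gave a sample, their age and the promoter of the transgene are not given in the sources used here. The source names on slides 3 and 4 omit DN4, which the series text gives for both groups. Each array held DN4 RNA in one colour and DN3 RNA in the other, with 4 Lig+ and 3 Lig- arrays that the series text calls biological replicates. The values are log2 ratios of DN4 over DN3, so that -1 is a halving, and they are relative to the middle of all genes on the array. A ratio was tested against 0 with limma across all 23602 genes, and a gene was called lower or higher where the Benjamini-Hochberg adjusted p was under 0.05. Whether all arrays held the same DN3 RNA is not given in the sources used here. It is counted as 1 control, and if it was 1 RNA the test leaves out the spread among DN3 samples. Both DN4 populations were set against it. In such bulk RNA, fewer cells with a transcript and less of it per cell cannot be told apart.

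Ribosome production starts in the nucleolus, where RNA polymerase I transcribes the ribosomal RNA precursor. Small nucleolar ribonucleoproteins (snoRNPs) of the box C/D and box H/ACA classes modify that precursor, and large assemblies fold and cut it into the 40S and 60S subunits. The pathway is known to be active in growing and dividing lymphocytes, and Myc proteins are known activators of many of its genes.

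Myc proteins bind the E-box CACGTG as dimers with Max, and this motif was looked for in the promoters of the 33 genes. The motif was chosen with the values of these genes and of the Myc family known. RefSeq promoter windows of the mouse (build GRCm38.p6, a reference that is not BALB/c) held 250 bases before to 50 after the start of 28 of the 33 genes. Fbl, Npm1, Rrp12, Bop1 and Nol6 had no entry. CACGTG, which reads the same on both strands, lay in a window of 6 of the 28 genes (21.4%), against 2187 of 27025 genes (8.09%) in the whole table, or 2349 of 32851 windows (7.15%). The 6 sites are shown in 30 bases each, on the strand of the gene, with the motif in capitals.
Nop2: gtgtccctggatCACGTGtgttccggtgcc
Nol11: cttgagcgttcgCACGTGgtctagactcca
Pes1: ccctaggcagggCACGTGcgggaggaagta
Wdr43: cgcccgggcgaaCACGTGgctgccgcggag
Utp20: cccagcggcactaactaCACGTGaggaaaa
Mybbp1a: aagtgactgtcttctgagccCACGTGtttg
The first base of the motif was 60 bases before the start in Nop2 (chr6:125131811-125131840, plus strand) and 43 before it in Nol11 (chr11:107189407-107189436, minus strand). It lay 2 bases after the start in Pes1 (chr11:3963965-3963994, plus strand), 17 after it in Wdr43 (chr17:71616220-71616249, plus strand), 37 in Utp20 (chr10:88826765-88826794, minus strand) and 40 in Mybbp1a (chr11:72441347-72441376, plus strand). Of these 6 genes, 4 (66.7%) were called lower in Lig+ cells (Nop2, Pes1, Wdr43 and Mybbp1a). Of the 22 genes whose windows lacked these letters, 14 (63.6%) were. Gnl3 and Nop16, among the largest falls of the 33, were in the second set, and their 100 bases before the start are shown beside those of Nop2.
Gnl3: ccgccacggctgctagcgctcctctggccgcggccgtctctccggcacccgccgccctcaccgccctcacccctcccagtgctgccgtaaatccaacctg
Nop16: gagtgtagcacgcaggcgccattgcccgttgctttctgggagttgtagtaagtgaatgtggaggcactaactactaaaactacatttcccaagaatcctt
Nop2: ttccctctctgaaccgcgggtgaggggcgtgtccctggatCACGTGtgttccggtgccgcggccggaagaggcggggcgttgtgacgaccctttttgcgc
These stretches were chr14:31019132-31019231 (minus strand), chr13:54590075-54590174 (minus strand) and chr6:125131783-125131882 (plus strand). A match describes the letters only and does not show binding. The whole table of windows was not limited to the genes measured here. A part of Myc proteins in the ratios of the 33 genes was not tested.

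Many of the ribosome biogenesis genes were lower in DN4 cells than in DN3 cells. In Lig+ DN4 cells 20 of the 33 were called lower and 1 higher, where 18.9% of all genes were called lower and 17.4% higher. In Lig- DN4 cells 14 were called lower and 0 higher by limma (0 higher at an unadjusted p under 0.05 as well), where 15% of all genes were lower and 16.3% higher. The 14 genes lower in Lig- cells (Nop56, Nop58, Fbl, Npm1, Wdr12, Wdr43, Pes1, Dkc1, Gnl3, Nop16, Nop10, Gar1, Ebna1bp2 and Noc4l) were all among the 20 lower in Lig+ cells. The other 6 of the 20 were Ncl, Nolc1, Polr1a, Polr1b, Nop2 and Mybbp1a, none of which differed between the DN4 populations at the threshold in this fit, so a fall in Lig+ cells alone is not shown for them. With the slides paired, Polr1b did differ (adjusted p by limma = 0.0387 with slide as a fixed replicate block), and the other 5 did not pass. The median log2 ratio over the 33 genes was -0.40 in Lig+ and -0.28 in Lig- cells, beside a median of 0.00057 and -0.0015 over all genes. The falls were mostly modest: only Wdr12 and Gnl3 were at least 1 log2 unit lower in Lig+ cells, and no gene was in Lig- cells. On every Lig+ array 22 of the 33 ratios were below 0, and 22 were on every Lig- array, against 24.8% and 28.4% of all genes.

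**Figure D1:**
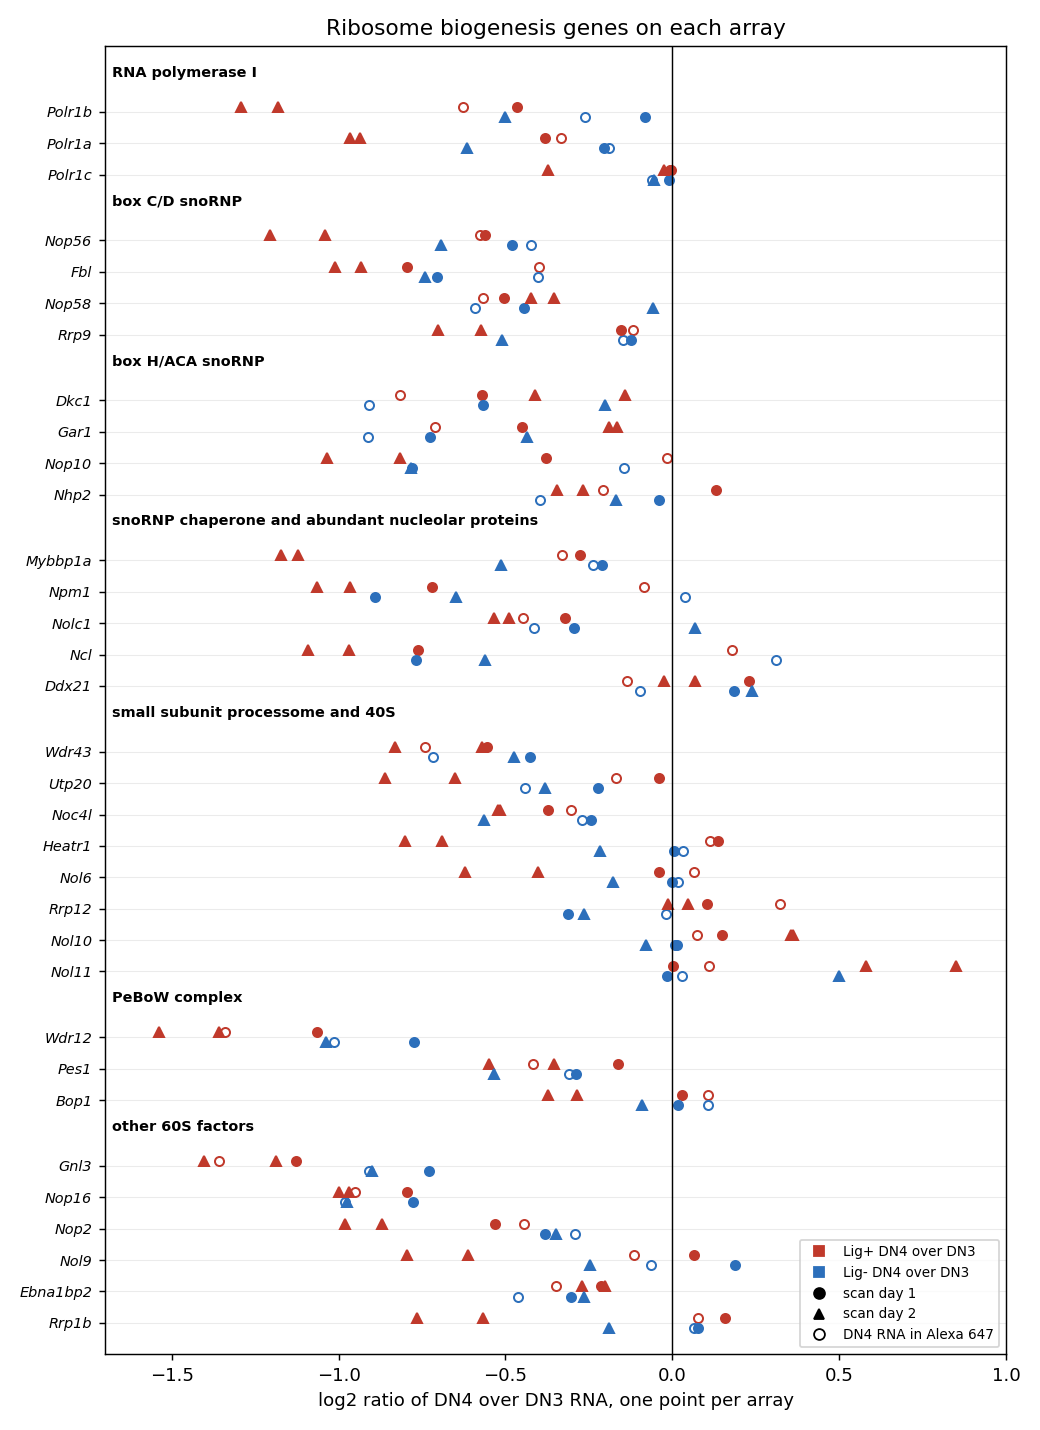
Log2 ratio of DN4 over DN3 RNA (horizontal axis) for each of the 33 genes on each array, grouped by role; red points are the 4 Lig+ arrays, blue points the 3 Lig- arrays, circles and triangles the scan days, and open symbols the arrays with DN4 RNA in Alexa 647. Wdr12, Gnl3 and Nop16 lie left of 0 on all 7 arrays, while Bop1, Ddx21 and Heatr1 lie on both sides of it.

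The brightest probes of both catalytic core subunits of RNA polymerase I were called lower in Lig+ cells. Polr1a encodes its largest subunit and Polr1b the second largest. Polr1b read -0.63, -0.46, -1.29 and -1.18 on Lig+ arrays 1 to 4 and -0.26, -0.083 and -0.50 on Lig- arrays 1 to 3. All 7 values were below 0, and those of the groups overlapped only through the third Lig- array. For Polr1b the fit gave -0.84 ± 0.16 (adjusted p = 0.00804) in Lig+ cells, a 1.79-fold fall, and -0.25 ± 0.18 (adjusted p = 0.364) in Lig- cells. Polr1a read -0.33, -0.38, -0.93 and -0.97 on the Lig+ arrays and -0.19, -0.20 and -0.62 on the Lig- arrays, again below 0 on all 7. For Polr1a the fit gave -0.57 ± 0.13 (adjusted p = 0.0155) in Lig+ cells and -0.28 ± 0.14 (adjusted p = 0.199) in Lig- cells. A second Polr1a probe read -0.067 (adjusted p by limma = 0.779) in Lig+ and 0.29 (adjusted p = 0.254) in Lig- cells, and with the mean of both probes the Polr1a call was lost. Polr1c, a subunit shared with RNA polymerase III, read -0.0034, -0.0063, -0.37 and -0.026 on the Lig+ arrays and -0.060, -0.011 and -0.055 on the Lig- arrays. Apart from the third Lig+ array it was close to 0, and for Polr1c the fit gave -0.088 ± 0.083 (adjusted p = 0.474) and -0.033 ± 0.091 (adjusted p = 0.839).

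Of the box C/D snoRNP proteins, which carry out 2′-O-methylation of ribosomal RNA, 3 of 4 were called lower in both DN4 populations. Of all genes, 18.9% were lower in Lig+ and 15% in Lig- cells. Fbl encodes fibrillarin, the methyltransferase. Fbl read -0.40, -0.79, -1.01 and -0.93 on Lig+ arrays 1 to 4 and -0.40, -0.71 and -0.74 on Lig- arrays 1 to 3, below 0 on all. For Fbl the fit gave -0.68 ± 0.065 (adjusted p = 3.62e-04) in Lig+ and -0.55 ± 0.071 (adjusted p = 0.00186) in Lig- cells. Nop56 and Nop58 are the scaffold proteins of the same particle. Nop56 read -0.58, -0.56, -1.04 and -1.20 on the Lig+ and -0.42, -0.48 and -0.69 on the Lig- arrays, lower on Lig+ arrays 3 and 4 than on 1 and 2. For Nop56 the fit gave -0.78 ± 0.12 (adjusted p by limma = 0.00299) in Lig+ and -0.49 ± 0.13 (adjusted p = 0.0329) in Lig- cells. The Lig- call of Nop56 was lost under 6 of 20 alternatives, among them the mean of its probes (-0.019, adjusted p = 0.951). Nop58 read -0.57, -0.50, -0.42 and -0.35 on the Lig+ and -0.59, -0.45 and -0.058 on the Lig- arrays, and here the arrays of the second scan day were nearest to 0. For Nop58 the fit gave -0.52 ± 0.084 (adjusted p = 0.00369) and -0.40 ± 0.092 (adjusted p = 0.0182). Rrp9, which belongs to the U3 particle alone, did not pass the test, at -0.32 ± 0.12 (adjusted p = 0.0838) in Lig+ and -0.22 ± 0.13 (adjusted p = 0.276) in Lig- cells.

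The box H/ACA snoRNP proteins, which isomerise uridine to pseudouridine, were also lower in both populations for 3 of 4. Of all genes, 18.9% were lower in Lig+ and 15% in Lig- cells. Dkc1 encodes dyskerin, the pseudouridine synthase. Dkc1 read -0.81, -0.57, -0.41 and -0.14 on Lig+ arrays 1 to 4 and -0.91, -0.57 and -0.20 on Lig- arrays 1 to 3, below 0 on all but with a wide spread. For Dkc1 the fit gave -0.60 ± 0.10 (adjusted p = 0.00404) in Lig+ and -0.64 ± 0.11 (adjusted p = 0.00596) in Lig- cells. Gar1 read -0.71, -0.45, -0.19 and -0.17 on the Lig+ and -0.91, -0.73 and -0.43 on the Lig- arrays. Within each of slides 1, 2 and 3, Gar1 was lower on the Lig- than on the Lig+ array. For Gar1 the fit gave -0.48 ± 0.084 (adjusted p = 0.00513) in Lig+ cells, -0.76 ± 0.092 (adjusted p = 0.00138) in Lig- cells and a difference of 0.28 ± 0.12 (adjusted p = 0.200). Nop10, the smallest protein of the particle, read -0.017, -0.38, -0.82 and -1.04 and -0.15, -0.78 and -0.78, nearest to 0 on the arrays with DN4 RNA in Alexa 647. For Nop10 the fit gave -0.39 ± 0.11 (adjusted p by limma = 0.0379) in Lig+ and -0.46 ± 0.12 (adjusted p = 0.0348) in Lig- cells. The Nop10 call was lost under 10 of 20 alternatives in Lig+ cells, among them slide as a random block (adjusted p = 0.0656). In Lig- cells it was lost under 7 of 20. Nhp2, the last of these proteins, gave -0.21 ± 0.10 (adjusted p = 0.154) and -0.23 ± 0.11 (adjusted p = 0.171).

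Of the snoRNP chaperone and abundant nucleolar proteins, 4 of 5 were lower in Lig+ cells (18.9% of all genes were) by their brightest probes. In Lig- cells 1 of 5 was, near the 15% of all genes, and which genes were called there changed with the probes used. Npm1 encodes nucleophosmin and Ncl nucleolin, 2 of the most abundant proteins of the nucleolus. Npm1 read -0.086, -0.72, -1.06 and -0.97 on Lig+ arrays 1 to 4 and 0.038, -0.89 and -0.65 on Lig- arrays 1 to 3. Ncl read 0.18, -0.76, -1.09 and -0.97 on the Lig+ and 0.31, -0.77 and -0.56 on the Lig- arrays. In both genes the arrays with DN4 RNA in Alexa 647, the first of each group, stood near or above 0 and the others well below it. These were the only 2 of the 33 genes whose dye term passed the threshold. The term was 0.41 (adjusted p by limma = 0.0473) for Npm1 and 0.53 (adjusted p = 0.0170) for Ncl. The arrays with DN4 RNA in Alexa 647 were also the only arrays of slide 1, so dye and slide cannot be told apart in this term. With the dye in the fit, Npm1 was -0.50 ± 0.082 (adjusted p = 0.00376) in Lig+ and -0.36 ± 0.090 (adjusted p = 0.0242) in Lig- cells, and the latter had an adjusted p of 0.0694 with slide as a random block. The other Npm1 probe gave -0.12 (adjusted p by limma = 0.736) and 0.063 (adjusted p = 0.885), and both Npm1 calls were lost with the mean of the probes. For Ncl the fit gave -0.40 ± 0.080 (adjusted p = 0.00895) in Lig+ and -0.16 ± 0.087 (adjusted p = 0.217) in Lig- cells, and without a dye term the Lig+ value lost its call. Nolc1, a chaperone of both snoRNP classes, read -0.45, -0.32, -0.53 and -0.49 on the Lig+ and -0.41, -0.29 and 0.068 on the Lig- arrays, with the third Lig- array alone above 0. For Nolc1 the fit gave -0.48 ± 0.090 (adjusted p by limma = 0.00678) and -0.24 ± 0.10 (adjusted p = 0.126). With the mean of the probes of each gene, Nolc1 and Ncl were called lower in Lig- cells too. Mybbp1a, a nucleolar Myb-binding protein, gave -0.64 ± 0.17 (adjusted p = 0.0301) in Lig+ and -0.26 ± 0.19 (adjusted p = 0.365) in Lig- cells. The RNA helicase gene Ddx21 read from -0.14 to 0.23 on the Lig+ arrays and gave -0.032 ± 0.065 (adjusted p = 0.752) and 0.064 ± 0.071 (adjusted p = 0.562).

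The small subunit processome, which cuts out the precursor of the 18S RNA, had calls at about the share of all genes. Of its 8 genes, 2 were lower in both populations, 1 was higher in Lig+ cells and 5 passed no test against DN3, where 18.9% and 15% of all genes were lower in Lig+ and Lig- cells and 17.4% higher in Lig+ cells. Wdr43 read -0.74, -0.56, -0.83 and -0.57 on Lig+ arrays 1 to 4 and -0.72, -0.43 and -0.47 on Lig- arrays 1 to 3, with groups that overlapped and no value above 0. For Wdr43 the fit gave -0.72 ± 0.072 (adjusted p = 4.65e-04) in Lig+ and -0.57 ± 0.079 (adjusted p = 0.00251) in Lig- cells. Noc4l read -0.30, -0.37, -0.52 and -0.52 and -0.27, -0.24 and -0.57, and gave -0.39 ± 0.075 (adjusted p = 0.00738) and -0.33 ± 0.082 (adjusted p = 0.0231). Rrp12, known as a factor in the export of both subunits, was the 1 gene called higher. Rrp12 read 0.32, 0.10, 0.047 and -0.014 on the Lig+ and -0.018, -0.31 and -0.26 on the Lig- arrays, so that all Lig+ values were above all Lig- values but close to 0. For Rrp12 the fit gave 0.18 ± 0.053 (adjusted p = 0.0375) in Lig+ cells and -0.15 ± 0.058 (adjusted p = 0.0973) in Lig- cells. The Rrp12 call against DN3 was lost under 15 of 20 alternatives, among them leaving out any 1 of the 7 arrays and slide as a random block, with values from 0.017 to 0.24 (adjusted p by limma from 0.00874 to 0.886). The other 5 were Heatr1, Utp20, Nol6, Nol10 and Nol11, scaffold or subcomplex proteins of the same machine. The brightest Heatr1 probe read 0.11, 0.14, -0.69 and -0.80 on the Lig+ arrays, above 0 on the first scan day and below it on the second. Of its other probes, 1 read 0.011, 0.15, -0.17 and -0.52, and 1 read 0.078, 0.14, 0.23 and 0.33, higher on the second day. Utp20 was at -0.40 ± 0.15 (adjusted p = 0.0922) in Lig+ and -0.33 ± 0.17 (adjusted p = 0.202) in Lig- cells. Nol11 read 0.11, 0.00061, 0.85 and 0.58 on the Lig+ and 0.028, -0.017 and 0.50 on the Lig- arrays, the opposite order by scan day to the brightest Heatr1 probe. Nol10 was above 0 on all Lig+ arrays and gave 0.21 ± 0.071 (adjusted p = 0.0623) in Lig+ and -0.034 ± 0.078 (adjusted p = 0.799) in Lig- cells.

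The largest fall of the 33 genes was in the PeBoW complex, which is needed to make the ribosomal RNAs of the 60S subunit. Wdr12 read -1.34, -1.07, -1.54 and -1.36 on Lig+ arrays 1 to 4 and -1.01, -0.77 and -1.04 on Lig- arrays 1 to 3, and the groups did not overlap. For Wdr12 the fit gave -1.34 ± 0.10 (adjusted p = 1.18e-04) in Lig+ cells, a 2.53-fold fall, and -0.95 ± 0.11 (adjusted p = 9.90e-04) in Lig- cells, a 1.93-fold fall. Its partners had smaller ratios. Pes1 read -0.42, -0.16, -0.55 and -0.35 on the Lig+ and -0.31, -0.29 and -0.53 on the Lig- arrays and gave -0.37 ± 0.088 (adjusted p = 0.0186) and -0.37 ± 0.10 (adjusted p = 0.0278). Bop1, the third subunit, read from -0.37 to 0.11 on the Lig+ arrays and gave -0.072 ± 0.086 (adjusted p = 0.580) in Lig+ and 0.050 ± 0.094 (adjusted p = 0.753) in Lig- cells.

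Among the other 60S factors 4 of 6 were lower in Lig+ and 3 of 6 in Lig- cells, where 18.9% and 15% of all genes were. Gnl3 encodes nucleostemin, a nucleolar GTPase known to be high in proliferating and stem cells. Gnl3 read -1.36, -1.13, -1.40 and -1.19 on Lig+ arrays 1 to 4 and -0.91, -0.73 and -0.90 on Lig- arrays 1 to 3, and the groups did not overlap. For Gnl3 the fit gave -1.30 ± 0.071 (adjusted p = 4.21e-05) in Lig+ cells, a 2.46-fold fall, and -0.86 ± 0.078 (adjusted p = 4.10e-04) in Lig- cells, a 1.82-fold fall. Nop16 read -0.95, -0.80, -0.999 and -0.97 on the Lig+ and -0.98, -0.78 and -0.97 on the Lig- arrays, with the narrowest spread of the large falls named here. For Nop16 the fit gave -0.95 ± 0.068 (adjusted p = 1.11e-04) and -0.92 ± 0.074 (adjusted p = 2.50e-04), about the same in both populations. Nop2, a methyltransferase of 28S RNA, read -0.45, -0.53, -0.87 and -0.98 on the Lig+ and -0.29, -0.38 and -0.35 on the Lig- arrays, also without overlap. For Nop2 the fit gave -0.65 ± 0.094 (adjusted p = 0.00221) in Lig+ and -0.30 ± 0.10 (adjusted p = 0.0696) in Lig- cells. Ebna1bp2, an early 60S assembly factor, was lower by less. Its brightest probe gave -0.30 ± 0.052 (adjusted p by limma = 0.00499) in Lig+ and -0.37 ± 0.057 (adjusted p = 0.00376) in Lig- cells. Rrp1b and the polynucleotide kinase gene Nol9 did not pass the test: Rrp1b gave -0.20 ± 0.17 (adjusted p = 0.423) and 0.035 ± 0.18 (adjusted p = 0.918). Nol9 gave -0.32 ± 0.17 (adjusted p = 0.191) in Lig+ and -0.015 ± 0.18 (adjusted p = 0.967) in Lig- cells.

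**Figure D2:**
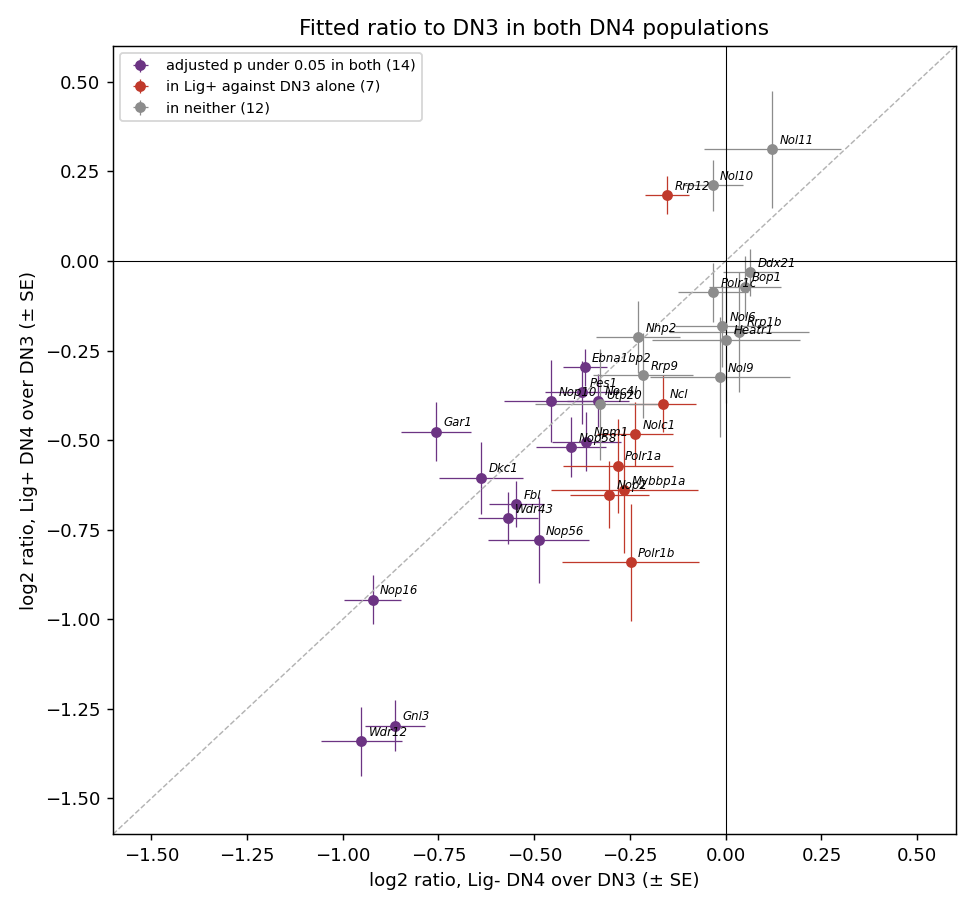
Fitted log2 ratio to DN3 ± SE in Lig- cells (horizontal axis, 3 arrays) and Lig+ cells (vertical axis, 4 arrays) for the 33 genes, with the dashed line at equal ratios; colours mark the 14 genes past the threshold in both comparisons, the 7 in Lig+ alone (6 lower, and Rrp12 higher) and the 12 in neither. Wdr12 and Gnl3 lie lowest, and Gar1 lies farthest to the other side of the line among the genes that fell in both.

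These ratios moved with the scan day. Slides 1 and 2 were scanned on the first day and slides 3 and 4 on the second, with another version of the Agilent software. Day, slides and software version cannot be told apart here. The median over the 33 genes was -0.30 and -0.32 on the Lig+ arrays of the first day and -0.62 and -0.57 on those of the second. On the Lig- arrays it was -0.26 and -0.29 on the first day and -0.38 on the second. In 23 of the 33 genes both second-day Lig+ values were below both first-day ones, against 33.3% of all genes. The reverse order held in 5 genes (Dkc1, Gar1, Nol10, Nol11 and Nop58), against 27.7%. In 16 genes the second-day Lig- value was the lowest of the 3, against 40.2%. The median DN4 signal was 394 to 595 on the first day and 233 to 259 on the second, and its part in the ratios was not tested. Fits within each day had 1 residual degree of freedom each and were not alike. The first-day fit had a dye term. The second-day fit had none, as all arrays of that day held DN4 RNA in Alexa 555, so its ratios hold any dye effect. In Lig+ cells they called 21 genes lower on the first day, where 29.6% of all genes were, and 25 on the second, where 25.3% were. In Lig- cells they called 24 on the first day (29.5% of all genes) and 15 on the second (13.3%). The second day held 1 Lig- array, whose spread is assumed to be that of the 2 Lig+ arrays of that day. A fit that held scan day as a fixed term called 25 lower in Lig+ and 21 in Lig- cells, with 25% and 20.3% of all genes.

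The counts also moved with single arrays, as those of all genes did. Without the first Lig+ array the count of genes called lower went from 20 to 9 in Lig+ cells (8.84% of all genes) and from 14 to 9 in Lig- cells (11.5%). The Lig+ median over the 33 genes was then -0.45. Without the first Lig- array the count was 18 in Lig+ (14.8% of all genes) and 4 in Lig- cells (4.96%), with a Lig- median of -0.15. Without the second Lig- array it was 19 (17.7%) and 9 (10.6%). Every called ratio to DN3 kept its sign under all 20 alternatives run for it. Nop56, Nop58, Fbl, Nolc1, Wdr12, Wdr43, Gnl3, Nop2 and Nop16 kept their call as well in Lig+ cells, and Wdr12, Gnl3, Nop16 and Gar1 did in Lig- cells.

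The question of how the 2 DN4 populations differed from each other was taken up with the contrast of their ratios. Gnl3 was lower in Lig+ than in Lig- cells by -0.43 ± 0.10 (adjusted p by limma = 0.0424) on the log2 scale and Rrp12 was higher by 0.34 ± 0.075 (adjusted p = 0.0377). With the brightest probe of each gene, these were the only 2 of the 33 past the threshold. Of all genes, 6.97% were called lower and 4.8% higher. Within slides 1, 2 and 3 the difference was -0.45, -0.40 and -0.50 for Gnl3. For Rrp12 it was 0.34, 0.42 and 0.31, so that each gene moved one way on all 3 slides. Slides 1 to 3 each carried an array of both groups and slide 4 a Lig+ array alone, and arrays of one slide deviated together. With slide as a fixed replicate block, 3 genes were lower in Lig+ cells and 1 higher, where 12.6% of all genes were lower and 9.69% higher. These were Gnl3 (-0.45, adjusted p = 0.0134), Rrp12 (0.36, adjusted p = 0.0249), Polr1b (-0.51, adjusted p = 0.0387) and Wdr12 (-0.37, adjusted p = 0.0317), and the count over all genes went from 2778 to 5270. Without the block Polr1b differed by -0.59 ± 0.23 (adjusted p = 0.172) and Wdr12 by -0.39 ± 0.14 (adjusted p = 0.135).

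Differences within the slides ran one way in other genes too. Lig+ was below Lig- on all 3 slides in 10 genes (Gnl3, Mybbp1a, Nol9, Nolc1, Nop2, Nop56, Polr1a, Polr1b, Wdr12 and Wdr43), against 29.6% of all genes. It was above on all 3 in Gar1, Nol10, Nol11 and Rrp12, against 28.6%. The Lig+ arrays lay wholly below the Lig- arrays in Wdr12, Gnl3 and Nop2, and wholly above in Rrp12 and Nol10, where 12.6% and 10.2% of all genes did. Both shares of the 33 genes lie near the background or under it. Both calls rested on few arrays: Gnl3 lost its call under 10 of 20 alternatives (adjusted p from 0.00460 to 0.212) and Rrp12 under 12 (0.00675 to 0.415). Gnl3 was past the threshold without the second Lig+ array and not without any other 1 array, and Rrp12 not without any 1.

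**Figure D3:**
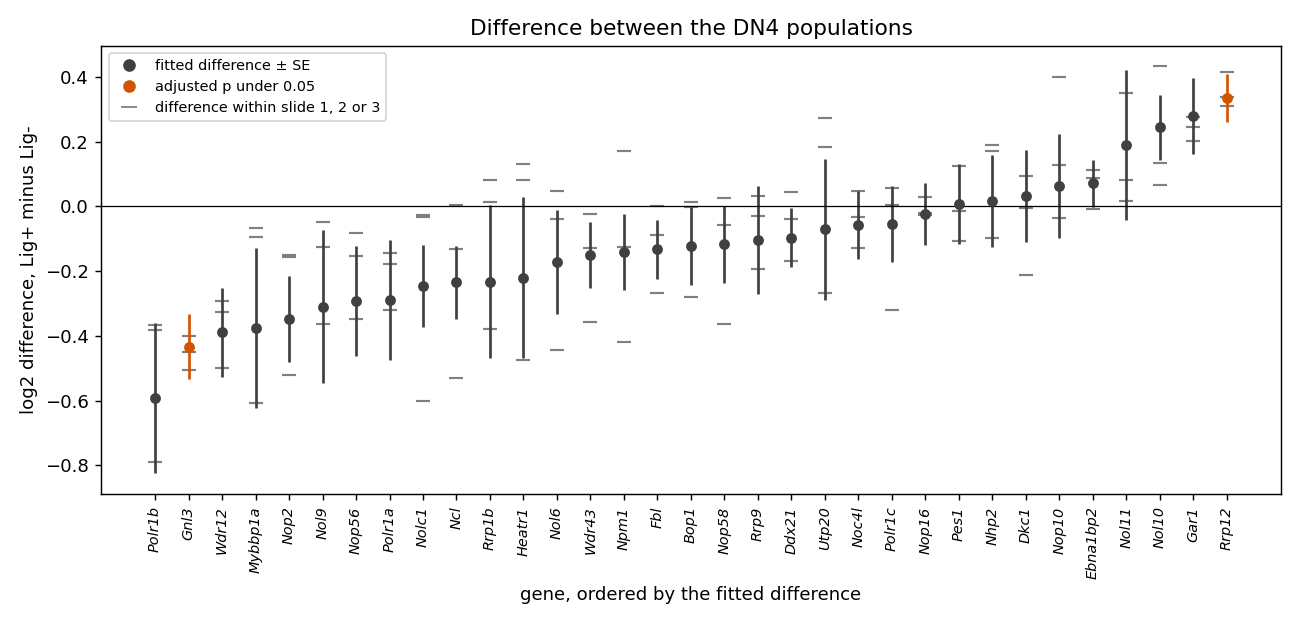
Fitted log2 difference, Lig+ minus Lig-, ± SE for the 33 genes in order (7 arrays), with grey dashes for the differences within slides 1, 2 and 3. Gnl3 (-0.43) and Rrp12 (0.34), in orange, passed the threshold, and Polr1b has the lowest difference with a wide error.

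Several genes had more than 1 probe, and the probes did not always give one answer. Of the 59 probes 58 were kept, and 17 genes had several. Fitted one by one, 30 of the 58 probes were called lower in Lig+ cells and 4 higher, against 18.9% and 17.7% of all probes. In Lig- cells 24 were called lower and 1 higher, against 15.5% and 16.3%. The probes shared one sign in 13 of the 17 genes in Lig+ cells and in 9 in Lig- cells. All 3 Wdr12 probes were called lower in both populations, from -1.52 to -1.34 in Lig+ and from -1.25 to -0.95 in Lig- cells. Nolc1 had the widest range in Lig+ cells, with -0.48 for the brightest probe and -1.08 for the other, both called. In Lig- cells the brightest Nolc1 probe gave -0.24 (adjusted p by limma = 0.129) and the other -0.80 (adjusted p = 0.00145), so only the latter was called. Nop56 had the widest in Lig- cells, where the probes gave -0.49 (adjusted p = 0.0334) and 0.45 (adjusted p = 0.140). Ncl gave -0.40, -0.41, -0.77 and -0.86 in Lig+ cells, all 4 called. In Lig- cells its 2 other values of -0.79 and -1.02 were called and those near -0.17 were not. Ddx21 changed with the choice of probe: the brightest gave -0.032 in Lig+ cells and the others 0.48 and 0.44, both called higher. Of the 4 Rrp1b probes 1 was called higher, at 0.36 in Lig+ and 0.59 in Lig- cells. The other Ebna1bp2 probe gave -0.24 (adjusted p by limma = 0.0564) in Lig+ and -0.79 (adjusted p = 0.00102) in Lig- cells. That probe was called between the populations, at 0.54 (adjusted p = 0.0325), and the brightest was not, at 0.072 (adjusted p = 0.637). Which transcripts each probe reads was not analysed here.

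**Figure D4:**
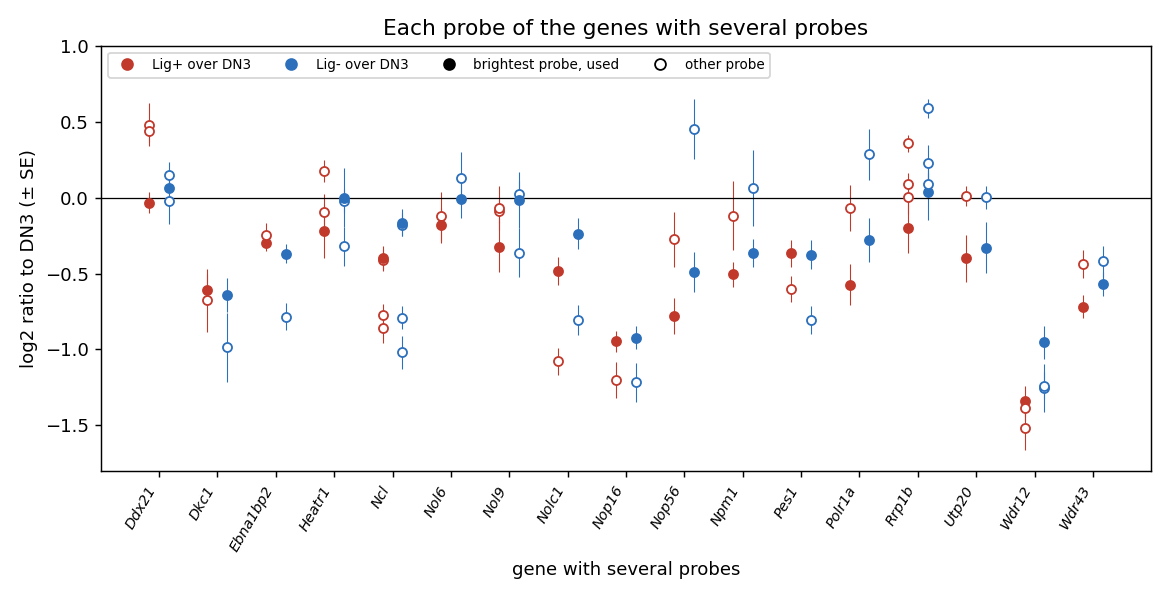
Log2 ratio to DN3 ± SE for each kept probe of the 17 genes with several probes, in Lig+ (red) and Lig- cells (blue); filled points are the brightest probe, used for the gene, and open points the others. The probes of Wdr12, Nop16 and Dkc1 lie below 0 in both populations, and those of Ddx21 and Rrp1b spread to either side of it.

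Further genes of the pathway were taken from lists that do not overlap the 33. Of 148 such genes measured, 51 (34.5%) were lower and 14 (9.46%) higher in Lig+ cells. In Lig- cells 45 (30.4%) were lower and 5 (3.38%) higher. The medians were -0.17 and -0.15. Of all genes, 18.9% were lower and 17.4% higher in Lig+ cells, and 15% and 16.3% in Lig- cells. Of 10 genes for snoRNP assembly, 7 were lower in Lig+ and 6 in Lig- cells, and limma called 0 higher in either (0 at an unadjusted p under 0.05). Snu13, the protein that seeds box C/D particles, was at -1.07 ± 0.10 (adjusted p = 2.98e-04) in Lig+ cells, and Shq1, a chaperone of dyskerin, at -0.99 ± 0.095 (adjusted p = 5.14e-04) in Lig- cells. Of 13 further genes for RNA polymerase I and its factors, 5 were lower and 1 higher in Lig+ cells, and 4 and 1 in Lig- cells. Taf1a, of the promoter selectivity factor, was at -0.93 ± 0.11 (adjusted p = 0.00113) in Lig+ cells and Polr1e at 0.37 ± 0.072 (adjusted p = 0.00769). In Lig- cells Taf1c was at -0.70 ± 0.18 (adjusted p = 0.0253) and Ubtf at 0.63 ± 0.17 (adjusted p = 0.0296).

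Of 53 other genes for the small subunit processome and 40S maturation, 12 (22.6%) were lower and 6 (11.3%) higher in Lig+ cells. In Lig- cells 18 (34%) were lower and limma called 0 higher (2 at an unadjusted p under 0.05). Of all genes, 18.9% were lower and 17.4% higher in Lig+ cells, and 15% and 16.3% in Lig- cells. The share of this list called lower in Lig+ cells was thus near that of all genes. Utp25 had the largest fall in Lig+ cells (-0.86 ± 0.078 (adjusted p = 3.01e-04)) and Utp14a the largest rise (0.38 ± 0.077 (adjusted p = 0.00964)), while Rrp7a fell most in Lig- cells (-1.35 ± 0.24 (adjusted p = 0.00741)). Of 58 genes for 60S assembly, 21 (36.2%) were lower and 5 (8.62%) higher in Lig+ cells, and 14 (24.1%) and 4 (6.9%) in Lig- cells. Rrp15 had the largest fall of that list in both, at -0.996 ± 0.10 (adjusted p = 3.97e-04) in Lig+ and -0.92 ± 0.11 (adjusted p = 0.00114) in Lig- cells. The largest rises were those of Gnl3l, a relative of Gnl3, in Lig+ cells (0.39 ± 0.094 (adjusted p = 0.0186)) and Ddx54 in Lig- cells (0.67 ± 0.12 (adjusted p = 0.00673)). Of 14 genes of the exosome, which trims ribosomal RNA precursors, 6 (42.9%) were lower and 2 (14.3%) higher in Lig+ cells. In Lig- cells 3 (21.4%) were lower and limma called 0 higher (0 at an unadjusted p under 0.05). Exosc5 was at -0.66 ± 0.16 (adjusted p = 0.0207) and Exosc3 at 0.38 ± 0.061 (adjusted p = 0.00362) in Lig+ cells, and Exosc6 at -0.47 ± 0.080 (adjusted p = 0.00584) in Lig- cells. Between the DN4 populations 2 of the 148 genes were lower in Lig+ cells and 3 higher, where 6.97% and 4.8% of all genes were. Urb2 was at -0.76 ± 0.10 (adjusted p = 0.00572) and Maf1 at -0.59 ± 0.14 (adjusted p = 0.0430), and Wdr46 was at 0.63 ± 0.13 (adjusted p = 0.0296) and Exosc3 at 0.49 ± 0.087 (adjusted p = 0.0182).

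**Figure D5:**
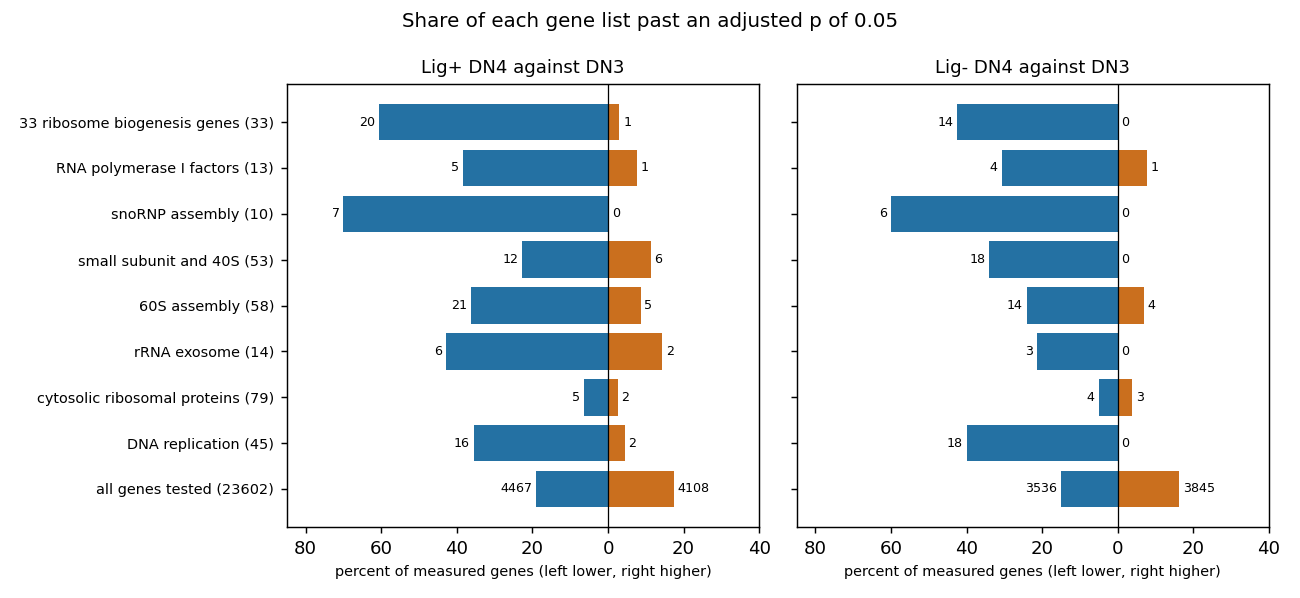
Percent of the measured genes of each list that passed an adjusted p of 0.05, drawn to the left where lower and to the right where higher than DN3, with the number of genes at each bar, for Lig+ (left panel) and Lig- cells (right panel). The 33 genes show 20 lower and 1 higher in Lig+ and 14 and 0 in Lig- cells, beside 4467 and 4108, and 3536 and 3845, of 23602 genes.

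The cytosolic ribosomal proteins, the product the pathway assembles with ribosomal RNA, gave fewer calls. Of 79 measured, 5 were lower and 2 higher in Lig+ cells, and 4 lower and 3 higher in Lig- cells. The medians were 0.010 and 0.060. Of all genes, 18.9% were lower and 17.4% higher in Lig+ cells, and 15% and 16.3% in Lig- cells. Rps14 was at -0.75 ± 0.21 (adjusted p = 0.0318) and Rps21 at 0.60 ± 0.18 (adjusted p = 0.0482) in Lig+ cells, and Rps2 was at -0.68 ± 0.10 (adjusted p = 0.00338) in Lig- cells. Rpl31 was the 1 gene of this list called between the populations, at 0.59 ± 0.14 (adjusted p by limma = 0.0474). Of all genes, 6.97% were lower and 4.8% higher in that comparison. The median of this list was 1.37 and 1.32 on the arrays with DN4 RNA in Alexa 647 and from -1.64 to -0.78 on the others (the 33 genes had -0.30 and -0.26 on the former and from -0.62 to -0.29 on the latter). The fitted medians near 0 and the few calls of the ribosomal proteins thus rest on the dye term, which cannot be told apart from slide 1. RNA levels equal to those of DN3 cells are not shown for this list. The DNA replication genes, read as a sign of cycling cells, were lower in 16 (35.6%) and higher in 2 (4.44%) of 45 in Lig+ cells. In Lig- cells 18 (40%) were lower and limma called 0 higher (0 at an unadjusted p under 0.05). Tk1 was at -0.99 ± 0.16 (adjusted p = 0.00419) in Lig- cells, and Prim2 at -2.67 ± 0.78 (adjusted p = 0.0376) and Rpa1 at 0.76 ± 0.12 (adjusted p = 0.00295) in Lig+ cells. Between the populations Mcm3 was at 1.08 ± 0.16 (adjusted p = 0.00979) and Mcm7 at -0.59 ± 0.13 (adjusted p = 0.0347). The part of cycling in the ratios of the 33 genes was not tested.

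Of the Myc family, 5 of 11 genes (45.5%) were lower and 3 (27.3%) higher in Lig+ cells. In Lig- cells 3 (27.3%) were lower and 2 (18.2%) higher. Of all genes, 18.9% were lower and 17.4% higher in Lig+ cells, and 15% and 16.3% in Lig- cells. Mycn read -3.41, -3.39, -3.26 and -3.13 on Lig+ arrays 1 to 4 and -2.92, -2.92 and -3.16 on Lig- arrays 1 to 3. For Mycn the fit gave -3.30 ± 0.080 (adjusted p = 5.86e-06) in Lig+ and -3.00 ± 0.088 (adjusted p = 1.09e-05) in Lig- cells, a larger fall than in any of the 33 genes. Myc, named after its values were seen, gave -1.84 ± 0.26 (adjusted p = 0.00212) and -1.06 ± 0.29 (adjusted p = 0.0336). Mxd3, a partner of Max that opposes Myc, was at 1.22 ± 0.23 (adjusted p = 0.00673) in Lig+ cells, and Mnt, another, at 0.78 ± 0.20 (adjusted p = 0.0295) in Lig- cells. Mxi1 was at -1.28 ± 0.15 (adjusted p = 0.00456) and Mxd1 at 0.53 ± 0.11 (adjusted p = 0.0278) between the populations.

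The sorted cells were checked with marker genes. Of 8 DN3 markers, such as Il2ra and Ptcra, 7 were lower in Lig+ and 8 in Lig- cells, with a mean log2 ratio from -5.09 to -2.78 over the Lig+ and from -3.98 to -2.51 over the Lig- arrays. Of 4 γδ T cell markers measured, 2 were higher in Lig+ and 3 in Lig- cells, and the mean ran from 1.34 to 2.84 and from 2.53 to 4.47. General T cell markers were split: of 8, 3 were lower and 3 higher in Lig+ cells, and 2 and 4 in Lig- cells. Of all genes, 18.9% were lower and 17.4% higher in Lig+ cells, and 15% and 16.3% in Lig- cells. Markers of other cells moved as well. Of 10 macrophage and monocyte markers, 9 were lower in Lig+ and 10 in Lig- cells, with a mean from -1.61 to -0.48 and from -1.67 to -1.24. Each of the 10 was well above background in the DN3 channel on at least 1 array. Of 7 granulocyte markers, 5 were lower in Lig+ and 3 in Lig- cells (mean from -1.20 to -0.60 and from -0.60 to -0.17). Of 6 NK and innate lymphoid markers, 2 were lower and 3 higher in Lig+ cells, and 1 and 2 in Lig- cells. Of 8 B cell markers, 3 were lower in Lig+ cells, and 2 lower and 2 higher in Lig- cells. Of 7 dendritic cell markers, 1 was higher in Lig+ and 2 lower in Lig- cells. Of 7 epithelial and stromal markers, 1 was lower and 1 higher in Lig+ cells, and 3 and 2 in Lig- cells. Of 4 erythroid markers, 1 was lower in Lig+ cells. The part of these other cells in the ratios of the ribosome biogenesis genes was not tested.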

How the data were processed

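RNA was amplified with amino allyl nucleotides and labelled with Alexa 555 or 647, per the labels' protocols. The authors' deposited scanner files hold spot intensity values from Agilent Feature Extraction, per the file headers (version 9.5.1.1 on the first pair of slides, 9.5.3.1 on the rest). Log10 ratios stand in the authors' deposited value table; set against the scanner files they are DN4 over DN3 (largest difference 4.87e-08), with a median of 0 per array. The DN4 RNA carried Alexa 647 on the first array of each group, per the labels. Whether these dye swaps reused the RNA of another array is not stated. They were the only arrays of slide 1, so the dye term holds any effect of that slide.

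In R 4.3.3 with limma 3.58.1, mean signals were corrected by normexp (offset 50), loess-normalised within arrays (the 1639 control spots had weight 0) and turned to log2 DN4 over DN3. Outlier spots (0.354%) were set missing. A filter kept 34906 of 41174 probes, those well above background on 3 or more arrays in DN4 or DN3, 0 spots were saturated, and the brightest probe stood for each gene. One fit of 7 arrays had terms for Lig+, Lig- and dye, with Benjamini-Hochberg adjustment over 23602 genes (4 residual and 2.33 prior degrees of freedom, median SE 0.0865, 0.0948 and 0.122 for Lig+, Lig- and their difference). The fit was checked on simulated data. Median signals were 233 to 595 in the DN4 and 443 to 571 in the DN3 channel. Probes were named through accession (22951), symbol (6659) or older symbol (3109) in a RefSeq gene table, and 8455 kept the file's name.

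Log ratios of arrays of one dye orientation correlated at 0.556 to 0.910 across probes, and of opposite orientation at -0.841 to -0.496. The labels number no replicates, so replicate numbers follow slides. Slide paired the arrays: deviations from the group means of slides 1 to 3 correlated at 0.61 to 0.78 between arrays of one slide. Between slides they correlated at -0.54 to -0.12. The value of 0.78 was that of slide 1, which held both dye-swapped arrays. The 33 genes, their roles and the other lists were chosen with earlier results of these data known. Named are all 33 genes and, of each other list, the largest rise and fall past the threshold in each comparison; 1 gene that this rule takes is not reported here. The alternatives were other signals, normalisation, filters, probes, blocks and arrays.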

Additional observations from a re-analysis of the deposited data

Results flagged for a closer look

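Polr1c on the third Lig+ array read -0.37, while the other Lig+ arrays lay between -0.026 and -0.0034, a gap of 0.94 of the whole range, more than Dixon's test allows at 95% for 4 samples. Chance alone flags about 1 group in 20, and the Lig+ values of 33 genes were looked at.

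Rrp12 and Gnl3 differed between the DN4 populations by the test of the difference itself. On the log2 scale Rrp12 was 0.34 higher in Lig+ than in Lig- cells, and Gnl3 was lower, at -0.43.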

How the results depend on the processing

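Every one of the 21 called ratios of Lig+ cells to DN3 and the 14 of Lig- cells kept its sign under the 20 alternatives run for each, and 9 and 4 of them stayed past the threshold under all. Leaving out 1 array at a time, the count of genes called lower ran from 9 to 24 in Lig+ cells and from 4 to 15 in Lig- cells. All genes called then ran from 4006 to 8886 (8575 with all arrays) and from 2732 to 8103 (7381 with all arrays), and the Lig- median over the 33 genes from -0.33 to -0.15. Between the populations the count lower ran from 0 to 2, with 1 to 9 at an unadjusted p under 0.05, and all genes called from 855 to 3545. Where a set holds fewer arrays, the fit has fewer degrees of freedom.

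The Lig- arrays alone called 9 genes lower (4901 of all genes). Between the populations limma called 0 genes lower with Agilent's processed signals (2 at an unadjusted p under 0.05), the authors' values (2) or median centring (1, with 1628 of all genes called). Median centring gave a Lig- median of -0.37 over the 33 genes. Slide as a fixed replicate block called 3 genes lower between the populations and 5270 of all genes, and the pairing by slide as a random block 3 and 5851. Blocking by slide changed no other call between the populations than those of Polr1b and Wdr12. Scan day as a random block called 3 and 4742 (Lig- median -0.37), and as a fixed term 3 and 5515 (Lig- median -0.37). The first scan day alone called 24 genes lower in Lig- cells, 3 between the populations, and 14411, 14276 and 9789 of all genes in the Lig+, Lig- and between-population comparisons, with a median difference of 0.0054. The second day alone, fitted without a dye term, gave medians of -0.67 and -0.38 and a median difference of -0.24. In 3 cases a call had the opposite sign: Ddx21 in Lig+ cells with the mean of its probes (0.30, adjusted p by limma = 0.00805), Heatr1 in Lig+ cells on the first day alone (0.12) and Utp20 between the populations on that day (0.23). Apart from the choice of probes and arrays, the cause was not tested. The number of arrays, 7, limits the precision: with 3 Lig- arrays a difference between the populations has a median SE of 0.122.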
